A study of Mus musculus with 4 samples.

Results

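The genes described here handle retinoic acid, the active acid made from vitamin A. They are the 9 genes Stra6, Rdh10, Dhrs3, Aldh1a1, Aldh1a2, Aldh1a3, Crabp1, Crabp2 and Cyp26b1, out of 24063 genes in the deposited table, and they were found by gene symbol in 15 of its 33072 RefSeq transcripts. They were chosen by the difference in Aldh1a2 FPKM between the cell types compared, so their values in this comparison are given as a description and carry no test. RNA-seq was done on melanotropes of the pituitary intermediate lobe (2 libraries) and corticotropes of the anterior lobe (2 libraries). Both cell types came from mice of strain C57B6 of a POMC-EGFP line, in which cells that use the Pomc promoter are green. The lobes were parted by dissection and GFP-positive cells were sorted from each. Ribosomal RNA was removed from total RNA before paired-end sequencing. All 4 libraries share the strain and the transgene, and no treatment is named. The ages and sexes of the mice, and whether libraries of a cell type came from separate animals or sorts, are not stated in the labels.

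Cells take up retinol and oxidise it in sequence, first reversibly to retinaldehyde and then irreversibly to retinoic acid by retinaldehyde dehydrogenases. Cellular binding proteins carry the acid to nuclear receptors or to the cytochrome P450 enzymes that break it down, so a cell's exposure depends on supply, carriage and removal together. In pituitary biology, retinoic acid is known for acting in the developing gland and for lowering Pomc expression in corticotroph tumour cells.

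Values were deposited as FPKM (fragments scaled by transcript length and to a library total), so levels of different genes can be compared per length. Over all transcripts the deposited columns summed to nearly the same total, 729482 and 729482 in melanotropes, against 729485 and 729483 in corticotropes. Each gene is represented by its longest transcript, and the columns were rescaled between libraries because Pomc transcripts took 49.7% and 50.9% of all FPKM in melanotropes, against 27.8% and 27.2% in corticotropes. Differences are melanotrope minus corticotrope on log2(rescaled FPKM + 1), a scale that shrinks changes of low genes. The low values implied about 146000000 and 149600000 reads over these transcripts in melanotropes, against 97600000 and 187200000 in corticotropes. A single read on a 1-kb transcript was worth 0.00457 and 0.00427 deposited FPKM in melanotropes, against 0.00869 and 0.00434 FPKM in corticotropes.

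The sorted cells carried the markers of their labels. The summed rescaled FPKM of 5 melanotrope markers (Pax7, Pcsk2, Drd2, Oacyl, Gulo) was 1579 and 1436 in melanotropes, against 231 and 179 in corticotropes. The sum of 5 corticotrope markers (Crhr1, Avpr1b, Nr3c1, Pcsk1, Neurod1) was 106 and 95.3 in melanotropes, against 351 and 344 in corticotropes. Most of the melanotrope sum was Pcsk1, at means of 90.3 FPKM in melanotropes and 139 FPKM in corticotropes. The other markers of this list stood in melanotropes at 1.22% (Neurod1) to 5.75% (Crhr1) of their corticotrope level. Some markers of other cell types also differed between the groups. Over all 20297 genes above 0 FPKM in any library, 63.7% did not overlap, 30.3% with melanotropes higher and 33.4% with melanotropes lower. The stem and folliculostellate cell markers below were in total near that share. All 13 markers of other hormone lineages were lower in melanotropes with no overlap, with sums of 14.7 and 63.8 in melanotropes, against 5810 and 5661 in corticotropes. Of 9 endothelial and pericyte markers 7 were lower and 1 higher without overlap, with sums of 8.05 and 6.06 in melanotropes, against 15.4 and 22.6 in corticotropes. Of 8 stem and folliculostellate cell markers 3 were higher and 2 lower without overlap, with sums of 27.3 and 31.5 in melanotropes, against 17.6 and 22.4 in corticotropes. Of 8 markers of posterior lobe and glia 6 were higher and 2 lower, with sums of 34.4 and 40.4 in melanotropes, against 23.3 and 25.6 in corticotropes. Vim, 1 of the 2 lower, made most of the corticotrope sum, at means of 10.8 FPKM in melanotropes and 19.8 FPKM in corticotropes. Among the 6 higher, Slc1a3 was at 12.6 against 1.82 FPKM and Rax at 2.83 against 0.0171 FPKM. Of 7 fibroblast and meningeal markers 5 were higher and 0 lower, with sums of 19.7 and 16.9 in melanotropes, against 7.77 and 9.64 in corticotropes. Of 6 immune markers 5 were higher and 0 lower, with sums of 14.8 and 18.1 in melanotropes, against 4.67 and 6.74 in corticotropes. Of the marker genes in these lists, 0 were listed at 0 in all 4 libraries. The part of these other cell types in the results that follow was not tested, and in bulk RNA fewer cells of a type and less RNA per cell cannot be told apart.

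Among the 9 genes, 3 were higher in melanotropes with no overlap between libraries (Rdh10, Crabp2, Stra6), 4 were lower (Aldh1a2, Aldh1a1, Cyp26b1, Crabp1) and 2 overlapped (Dhrs3, Aldh1a3). Crabp1 counts as lower on 0 and 0 reads in melanotropes, against 2 and 2 reads in corticotropes, all under the floor of 3 reads. For comparison, the libraries of the cell types did not overlap in 63.7% of the 20297 genes above 0 FPKM in any library, 30.3% with melanotropes higher and 33.4% with melanotropes lower. In the deposited columns, before rescaling, 2 of the 9 were higher, 5 lower and 2 overlapped, because Rdh10 then overlapped and Dhrs3 was lower. At least 1 rescaled FPKM in at least 2 libraries was reached by 4 of the 9 genes (Aldh1a1, Aldh1a2, Rdh10, Crabp2), and Crabp2 reached it through melanotropes alone. By the annotation, 0 of the 9 share exonic bases with another gene.

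**Figure D1:**
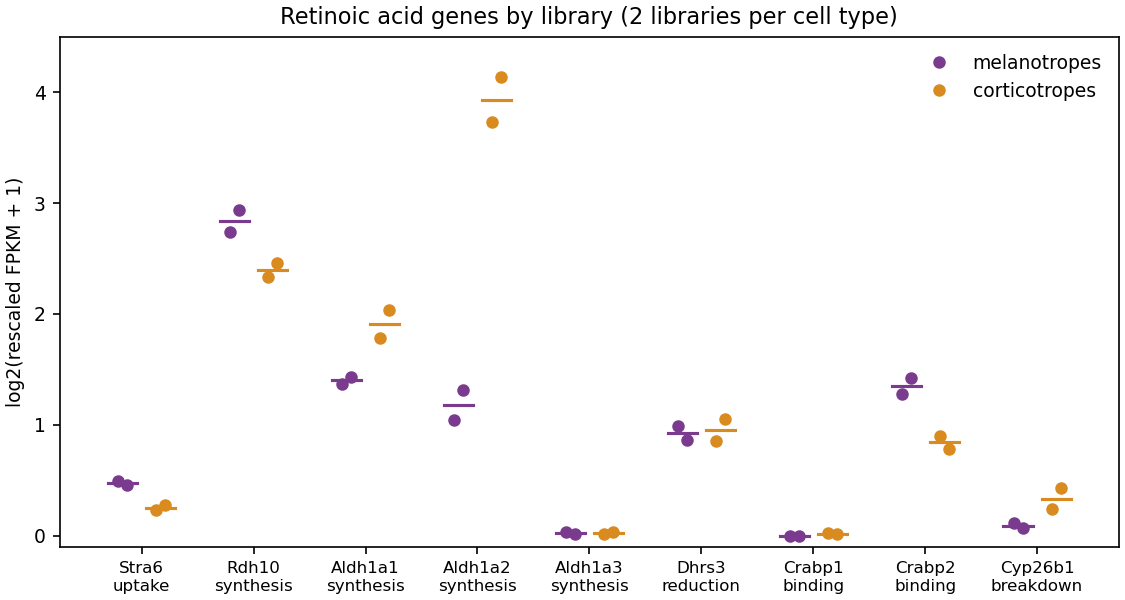
Levels of the 9 retinoic acid genes in each library as log2(rescaled FPKM + 1), ordered by role, with melanotropes left of corticotropes; points are libraries and bars are means (n = 2 each). Aldh1a2 shows the widest gap, with melanotropes at 1.07 and 1.49 FPKM and corticotropes at 12.3 and 16.6 FPKM, while Aldh1a3 and Crabp1 lie near 0 in all 4 libraries.

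Aldh1a2, the retinaldehyde dehydrogenase that makes most retinoic acid in the early embryo, was the gene on which the choice rested. The transcript NM_009022 (2248 bases, mm10 chromosome 9, 71215789 to 71296243, plus strand) was at 1.07 and 1.49 FPKM in melanotropes, against 12.3 and 16.6 FPKM in corticotropes. Both melanotrope libraries lay far below both corticotrope libraries. The means were 1.28 ± 0.298 FPKM in melanotropes and 14.4 ± 3.04 FPKM in corticotropes (SD, n = 2 each), so melanotropes held 8.86% of the corticotrope level, a difference of -2.75 on the log2 scale (-1.62 with a pseudocount of 5, and lower in melanotropes in all 9 alternatives run). The values rested on an implied 463 and 631 reads in melanotropes, against 3874 and 9868 reads in corticotropes. In melanotropes 7.26% of tested genes lay below the mean of Aldh1a2, against 67.9% in corticotropes. Its difference ranked as number 50 from the lowest among 13043 tested genes. In the authors' deposited table its log2 fold change was -3.69, and the same table lists the log2 fold changes of Aldh1a3, Crabp1, Cyp26b1 and Stra6 as 0. The deposited FPKM of Cyp26b1 and Stra6 did not overlap between the cell types, so these 0 values are not read as a lack of difference. For scale, marker genes of other hormone lineages in melanotropes stood at 0.167% to 16.9% of their corticotrope level, and the 5 corticotrope markers at 1.22% to 65.0%.

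The base sequence just upstream of this start is shown because Aldh1a2 carries the main difference, with that of Aldh1a1 beside it for contrast. Both are from RefSeq on GRCm38.p6, read 5′ to 3′ on the plus strand, and each ends 1 base before the annotated start. The Aldh1a2 window is chr9:71215539-71215788 and that of Aldh1a1 is chr19:20601718-20601967, whose RefSeq start lies 14 bases from the deposited one. Capitals mark a hexamer of the kind that retinoic acid receptors bind, searched on both strands as AGGTCA itself, as the variant AGTTCA, as the further variant GGGTCA and lastly as the variant GGTTCA.
Aldh1a2: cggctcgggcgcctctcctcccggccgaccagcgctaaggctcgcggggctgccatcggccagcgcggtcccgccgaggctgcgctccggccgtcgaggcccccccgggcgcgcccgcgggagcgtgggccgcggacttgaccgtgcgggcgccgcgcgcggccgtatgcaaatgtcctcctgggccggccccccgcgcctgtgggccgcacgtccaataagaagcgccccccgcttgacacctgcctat
Aldh1a1: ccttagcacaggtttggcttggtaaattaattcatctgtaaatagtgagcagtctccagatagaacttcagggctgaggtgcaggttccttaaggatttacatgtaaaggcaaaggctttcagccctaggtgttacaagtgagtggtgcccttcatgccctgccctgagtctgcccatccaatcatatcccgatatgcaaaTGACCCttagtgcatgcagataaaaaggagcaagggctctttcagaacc
The Aldh1a2 window was 77.6% G and C, held no hexamer, and the Aldh1a1 window was 46.4% G and C. Its single hexamer, GGGTCA on the minus strand, lay 49 to 44 bases before the start. Of all 32851 RefSeq promoter windows of this length, 38.6% held a hexamer. Of the 9 genes 6 had a window in the table, 12 windows in all, and a hexamer was found in 1 of the 12. Some genes gave several windows, and windows of Dhrs3 overlap, so these few windows cannot show a lack of hexamers. Aldh1a3, Rdh10 and Crabp2 are named only.

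Aldh1a1, the second retinaldehyde dehydrogenase, also differed in the direction of Aldh1a2 but by less. It was at 1.59 and 1.70 FPKM in melanotropes, against 2.43 and 3.10 FPKM in corticotropes (NM_013467, chromosome 19, 20601982 to 20643462). The libraries did not overlap, and the means of 1.64 ± 0.0777 FPKM in melanotropes and 2.77 ± 0.475 FPKM in corticotropes (SD, n = 2 each) put melanotropes at 59.4% of corticotropes, a log2 difference of -0.51. Its near-identical neighbour in sequence, Aldh1a7, was listed at or near 0 in all libraries. Aldh1a3, the third member of the family, was barely present, at 0.0227 and 0.0124 FPKM in melanotropes, against 0.00819 and 0.0261 FPKM in corticotropes. These values correspond, within rounding, to 15 and 8 reads in melanotropes, against 4 and 23 reads in corticotropes, and they overlapped.

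The make-up of the family therefore differed, and a share within a library does not depend on how libraries are scaled. Aldh1a2 was 39.8% and 46.5% of the summed FPKM of Aldh1a1, Aldh1a2 and Aldh1a3 in melanotropes, against 83.4% and 84.1% in corticotropes. Aldh1a1 was the larger in both melanotrope libraries, at 59.3% and 53.1%, against 16.5% and 15.8% in corticotropes. The summed level was 2.68 and 3.20 FPKM in melanotropes, against 14.7 and 19.7 FPKM in corticotropes.

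**Figure D2:**
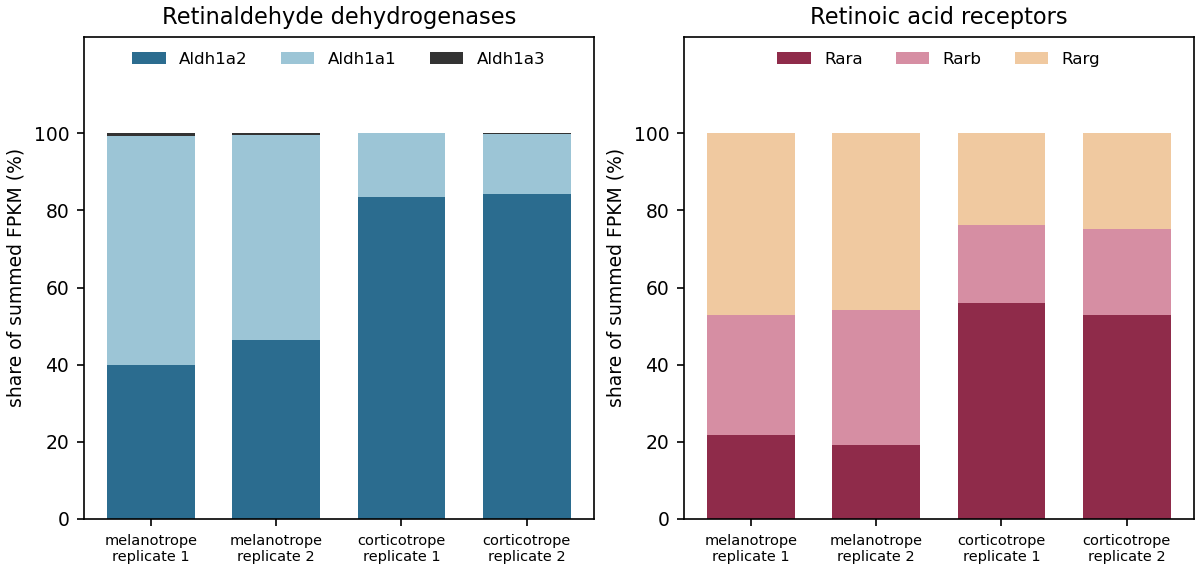
Shares (%) of the summed FPKM per library within the retinaldehyde dehydrogenases (left) and within the retinoic acid receptors (right), with melanotrope libraries left of corticotrope libraries. Aldh1a2 fills 39.8% and 46.5% of the melanotrope bars, against 83.4% and 84.1% of the corticotrope bars, and Rarg fills 47.1% and 46.0%, against 23.9% and 24.8%. Each gene enters by its longest transcript, and the Rarb value is uncertain.

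Rdh10, which makes retinaldehyde, and Dhrs3, which removes it, did not show a difference of the size of Aldh1a2. Rdh10, the retinol dehydrogenase of the first oxidation step, was at 5.69 and 6.66 FPKM in melanotropes, against 4.03 and 4.51 FPKM in corticotropes (NM_133832, chromosome 1, 16105882 to 16132550). After rescaling both melanotrope libraries were above both corticotrope libraries, at 1.45 times the mean and a log2 difference of 0.44. Unscaled, the values overlapped, at 5.02 and 5.37 FPKM in melanotropes, against 4.92 and 5.19 FPKM in corticotropes, with a difference of 0.03. The ratio of Aldh1a2 to Rdh10 in a library, which no scaling changes, was 0.187 and 0.223 in melanotropes, against 3.04 and 3.67 in corticotropes. Dhrs3, which returns retinaldehyde to retinol, overlapped at 0.987 and 0.818 FPKM in melanotropes, against 0.802 and 1.08 FPKM in corticotropes (NM_011303, chromosome 4, 144893137 to 144927645). Unscaled, Dhrs3 was lower in melanotropes without overlap, at 0.87 and 0.66 FPKM, against 0.98 and 1.24 FPKM in corticotropes, with a difference of -0.26. Rdh10 was 5.77 and 8.14 times Dhrs3 in melanotropes, against 5.02 and 4.19 times in corticotropes.

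Stra6, the cell-surface receptor that takes up retinol from its plasma carrier, was low in both cell types. It was at 0.408 and 0.372 FPKM in melanotropes, against 0.172 and 0.209 FPKM in corticotropes (NM_001162476, chromosome 9, 58134075 to 58153997). The libraries did not overlap, and the mean in melanotropes was 2.05 times that in corticotropes, on an implied 241 and 215 reads in melanotropes, against 74 and 169 reads in corticotropes. The 4 Stra6 transcripts in the table held the same reads within rounding, so their starts cannot be told apart.

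Among the binding proteins, Crabp2, which delivers retinoic acid to its nuclear receptor, was at 1.42 and 1.67 FPKM in melanotropes, against 0.868 and 0.721 FPKM in corticotropes (NM_007759, chromosome 3, 87948693 to 87953372). Both melanotrope libraries were higher, with means of 1.55 ± 0.180 FPKM in melanotropes and 0.794 ± 0.103 FPKM in corticotropes (SD, n = 2 each) and a log2 difference of 0.50. Crabp1, its relative linked to breakdown of the acid, held 0 and 0 reads in melanotropes, against 2 and 2 reads in corticotropes. A floor of 3 reads would be 0.0195 and 0.0200 rescaled FPKM in melanotropes, against 0.0268 and 0.0142 FPKM in corticotropes. All 4 libraries were under it, so no fold is given.

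Cyp26b1, a cytochrome P450 that breaks down retinoic acid, was low in all libraries and lower in melanotropes. It was at 0.0794 and 0.0496 FPKM in melanotropes, against 0.180 and 0.348 FPKM in corticotropes (NM_175475, chromosome 6, 84571414 to 84593810, minus strand). The implied reads were 73 and 44 in melanotropes, against 120 and 437 in corticotropes. The mean in melanotropes was 24.4% of that in corticotropes, and the corticotrope libraries differed from each other by more than the gap between the nearest libraries of the groups. The other genes of its family, Cyp26a1 and Cyp26c1, reached at most 0.0113 and 0.0409 FPKM in any library.

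Ordered by level, Rdh10 led in melanotropes, followed by Aldh1a1, Crabp2, Aldh1a2, Dhrs3, Stra6, Cyp26b1, Aldh1a3 and Crabp1. The libraries of Aldh1a1 and Crabp2 overlapped there, as did those of Crabp2 and Aldh1a2. In corticotropes Aldh1a2 led, followed by Rdh10, Aldh1a1, Dhrs3, Crabp2, Cyp26b1, Stra6, Aldh1a3 and Crabp1. Dhrs3 and Crabp2 overlapped there, as did Cyp26b1 and Stra6, and Aldh1a3 and Crabp1.

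The nuclear receptors were not used to choose the 9 genes, and they were tested in a limma fit of 13043 genes with Benjamini-Hochberg adjustment. That fit called 36.2% of genes at an adjusted p under 0.05, 18.7% higher and 17.5% lower in melanotropes. In the deposited columns, where the median gene was at -0.42, it called 939 genes higher and 8787 lower of 13153 tested. Rara (chromosome 11, 98937718 to 98974942) fell in melanotropes, at 3.01 and 2.88 FPKM, against 7.18 and 6.81 FPKM in corticotropes (log2 fold change -1.02 ± 0.08 SE, limma adjusted p = 0.000411). Rarg (chromosome 15, 102234938 to 102257522) rose, at 6.49 and 6.89 FPKM in melanotropes, against 3.05 and 3.20 FPKM in corticotropes (log2 fold change 0.90 ± 0.09 SE, limma adjusted p = 0.000666). All 3 retinoic acid receptors together, each by its longest transcript, summed to 13.8 and 15.0 FPKM in melanotropes, against 12.8 and 12.9 FPKM in corticotropes. The Rarb part of the sum is uncertain, as given below. Within that sum Rara was 21.8% and 19.2% in melanotropes, against 56.1% and 52.9% in corticotropes, and Rarg was 47.1% and 46.0% in melanotropes, against 23.9% and 24.8% in corticotropes.

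Rarb, a receptor gene that retinoic acid itself is known to induce, was at 4.28 and 5.23 FPKM in melanotropes, against 2.56 and 2.87 FPKM in corticotropes (log2 fold change 0.63 ± 0.11 SE, limma adjusted p = 0.00775). It rose after rescaling, while in the deposited columns the fold change was 0.24 with a limma adjusted p of 0.0669. The value is uncertain, because in the GENCODE annotation 1792 exonic bases within the span of the counted Rarb transcript are shared with Top2b on the opposite strand, and the strand setting of the counting is not stated in the labels or headers. The deposited Top2b transcript itself ends before Rarb begins, so this concerns longer annotated Top2b transcripts. Top2b was at 38.4 ± 0.258 FPKM in melanotropes and 29.8 ± 0.443 FPKM in corticotropes (SD, n = 2 each). The shorter Rarb transcript NM_011243, whose start the promoter below precedes, was at 5.66 and 6.79 FPKM in melanotropes, against 3.36 and 3.75 FPKM in corticotropes. Its window, chr14:16575477-16575726 on the minus strand (RefSeq, GRCm38.p6, 5′ to 3′), is shown because it holds paired hexamers, in capitals.
Rarb: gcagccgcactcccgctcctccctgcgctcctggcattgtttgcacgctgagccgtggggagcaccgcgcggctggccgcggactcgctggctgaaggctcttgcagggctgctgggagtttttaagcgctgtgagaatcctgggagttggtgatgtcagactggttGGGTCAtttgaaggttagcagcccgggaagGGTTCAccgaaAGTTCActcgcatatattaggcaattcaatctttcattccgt
Direct repeats of the hexamer with a spacer of 5 bases, as at 53 to 37 bases before this start, occurred in 0.0883% of all promoter windows, 29 of 32851. The third hexamer lay 83 to 78 bases before the start. Among 13 windows of the 6 receptor genes 6 held a hexamer and 1 held such a repeat. Repeats with a spacer of 1 or 2 bases occurred in 0.164% and 0.174% of all windows. The 12 windows, found for 6 of the 9 genes, held 0 repeats with a spacer of 1, 2 or 5 bases. With repeats this rare, so few windows cannot show a lack of them.

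The retinoid X receptors, the partners with which these receptors bind DNA, differed too. Rxra (chromosome 2, 27677201 to 27763319) fell, at 8.76 and 8.87 FPKM in melanotropes, against 16.2 and 15.7 FPKM in corticotropes (log2 fold change -0.79 ± 0.08 SE, limma adjusted p = 0.000697). Rxrg (chromosome 1, 167598362 to 167639623) fell as well, and was near 0 in melanotropes at 0.0113 and 0.0620 FPKM, against 1.48 and 1.23 FPKM in corticotropes (log2 fold change -1.18, limma adjusted p = 0.000569). It passed the filter through corticotropes alone. For a gene this low the size depends on the pseudocount, with -3.44 at 0.1 and -0.34 at 5. Rxrb was at 14.8 and 14.7 FPKM in melanotropes, against 13.8 and 15.1 FPKM in corticotropes, with a log2 fold change of 0.03 ± 0.08 SE and a limma adjusted p of 0.822. Its share of the summed retinoid X receptors was 62.8% and 62.1% in melanotropes, against 43.8% and 47.2% in corticotropes.

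**Figure D3:**
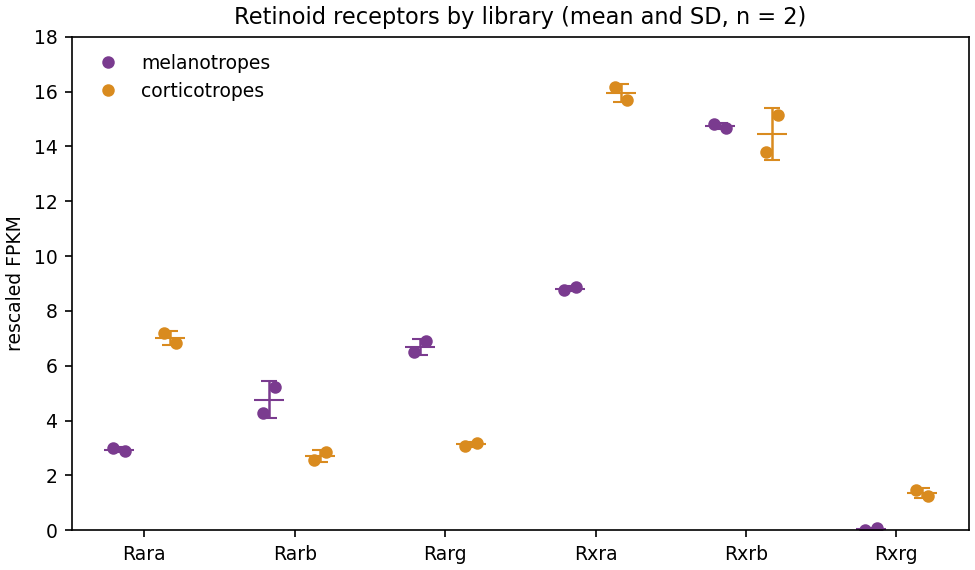
Rescaled FPKM of the 6 retinoid receptor genes per library, melanotropes left of corticotropes; points are libraries, bars are means ± SD (n = 2 each). Rara, Rxra and Rxrg are lower and Rarb and Rarg are higher in melanotropes, while the Rxrb libraries lie at 14.8 and 14.7 FPKM in melanotropes, against 13.8 and 15.1 FPKM in corticotropes. In the deposited columns the Rarb call is lost and Rxrb is lower.

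The wider list of 27 retinoid receptors and cofactors had 5 genes that rose and 6 that fell, with a median log2 fold change of -0.06, against 0.01 over all tested genes. These are 18.5% and 22.2% of the list, near the 18.7% and 17.5% over all genes. Beside the receptors, Nr2f1, an orphan nuclear receptor that can bind retinoic acid response elements, rose at 1.78 and 1.39 FPKM in melanotropes, against 0.458 and 0.495 FPKM in corticotropes (limma adjusted p = 0.00301). Zfp423, a zinc finger cofactor of these receptors, rose at 1.35 and 1.54 FPKM in melanotropes, against 0.589 and 0.608 FPKM in corticotropes (limma adjusted p = 0.00504). Nr2f1 and Zfp423 passed the filter through melanotropes alone, so of the 5 genes that rose 2, and of the 6 that fell 1 (Rxrg), entered the test through the group in which they were high. Before rescaling, the list had 3 genes that rose and 19 that fell, beside 939 and 8787 of all 13153 tested genes. Without either melanotrope replicate, Nr2f1 and Zfp423 could not reach the filter and 25 genes were tested. Without melanotrope replicate 2, not all of the other genes that rose were called.

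Carriers and storage genes moved both ways. Of 18 measured genes, 9 were tested, of which 3 rose (33.3%, against 18.7% over all genes) and 3 fell (33.3%, against 17.5%), with a median of -0.06. Of the 3 that fell 1, Rbp4, passed the filter through corticotropes alone. Lpl, a lipase that can free retinol from esters in lipoproteins, was at 10.8 and 14.9 FPKM in melanotropes, against 2.44 and 2.38 FPKM in corticotropes (log2 fold change 2.00, limma adjusted p = 0.000278). Rbp7, an intracellular retinol-binding protein, rose at 4.05 and 4.92 FPKM in melanotropes, against 1.24 and 1.43 FPKM in corticotropes (limma adjusted p = 0.0006). Fabp5, a fatty acid carrier that can also bind retinoic acid, was at 46.4 and 23.3 FPKM in melanotropes, against 15.8 and 13.1 FPKM in corticotropes. Its call (limma adjusted p = 0.0289) was lost without corticotrope replicate 2 (0.0734), without the filter on low values (0.0854) and in the deposited columns (0.119). Ces1d, a carboxylesterase that can cleave retinyl esters, fell at 3.86 and 4.67 FPKM in melanotropes, against 20.7 and 28.5 FPKM in corticotropes (log2 fold change -2.27, limma adjusted p = 0.000254). Rbp4, the plasma carrier of retinol, fell at 0.272 and 0.384 FPKM in melanotropes, against 1.53 and 1.41 FPKM in corticotropes (limma adjusted p = 0.00137). Dgat1, which can make retinyl esters, fell at 10.6 and 10.2 FPKM in melanotropes, against 14.03 and 15.54 FPKM in corticotropes (limma adjusted p = 0.00808). Lrat, the main retinyl ester synthase, reached at most 0.0227 FPKM. Before rescaling, 2 of the 9 tested carriers and storage genes rose and 6 fell, beside 939 and 8787 of all 13153 tested genes.

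Other enzymes acting on retinol, retinaldehyde and carotenoids were mostly low, with 9 of 25 tested. Among those 9, 2 rose (22.2%, near the 18.7% over all genes) and 0 fell (17.5% over all genes), with 0 lower also at an unadjusted limma p under 0.05 and a median of 0.09. Dhrs7, a short-chain dehydrogenase, was at 40.2 and 40.7 FPKM in melanotropes, against 29.5 and 27.5 FPKM in corticotropes (limma adjusted p = 0.00511). Dhrs4, which can reduce retinaldehyde, was at 4.99 and 5.52 FPKM in melanotropes, against 3.63 and 3.81 FPKM in corticotropes (limma adjusted p = 0.0167). The Dhrs4 call was lost without melanotrope replicate 2 (limma adjusted p = 0.109) and without corticotrope replicate 1 (0.0551). Unscaled, where 939 of all 13153 tested genes rose and 8787 fell, 0 of these 9 genes rose and 6 fell. Neither Dhrs7 nor Dhrs4 was called there. Without melanotrope replicate 2 or corticotrope replicate 1 the number that rose was 1. Rdh11, a retinaldehyde reductase, was at 7.91 and 8.44 FPKM in melanotropes, against 7.33 and 8.85 FPKM in corticotropes, which overlapped. Adh1, an alcohol dehydrogenase that oxidises retinol, was too low to be tested, at 0.828 and 0.521 FPKM in melanotropes, against 0.156 and 0.243 FPKM in corticotropes.

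Of 17 other aldehyde dehydrogenases 13 were tested, of which 2 rose (15.4%, against 18.7% over all genes) and 6 fell (46.2%, against 17.5%), with a median of -0.28. Of the 6 that fell 2, Aldh3a1 and Aldh1l2, passed the filter through corticotropes alone. Without either corticotrope replicate these 2 could not reach the filter and 11 genes were tested, of which fewer of the others fell. In the deposited columns 1 rose and 11 fell of 14 tested, beside 939 and 8787 of all 13153 tested genes. Aldh3a1, which oxidises aromatic and medium-chain aldehydes, fell at 0.454 and 0.52 FPKM in melanotropes, against 4.03 and 4.92 FPKM in corticotropes (log2 fold change -1.88, limma adjusted p = 0.000142). Aldh1l2, a mitochondrial enzyme of folate metabolism, fell at 0.873 and 0.409 FPKM in melanotropes, against 2.26 and 2.14 FPKM in corticotropes (limma adjusted p = 0.00421). Aldh2, the mitochondrial enzyme that clears acetaldehyde, fell at 16.5 and 21.0 FPKM in melanotropes, against 34.0 and 35.4 FPKM in corticotropes (limma adjusted p = 0.00297). Aldh3b1, which oxidises lipid aldehydes, rose at 7.21 and 8.11 FPKM in melanotropes, against 3.53 and 3.41 FPKM in corticotropes (limma adjusted p = 0.000693). Aldh5a1, which oxidises succinate semialdehyde in GABA breakdown, was at 11.4 and 11.4 FPKM in melanotropes, against 8.74 and 7.20 FPKM in corticotropes (limma adjusted p = 0.0162), and its call was lost in the deposited columns (0.845). The antisense gene D10Wsu102e shares 1056 of 7503 exonic bases of Aldh1l2, and 4932702P03Rik shares 796 of 5647 of Aldh5a1, so both values are uncertain if strand was not used. Smaller overlaps with opposite-strand genes were annotated for Aldh2, Adh1 and Nr2f1.

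Among 31 genes known from other tissues to respond to retinoic acid, 14 were tested, of which 4 rose (28.6%, against 18.7% over all genes) and 5 fell (35.7%, against 17.5%), with a median of -0.04. Of the 5 that fell 1, Ret, passed the filter through corticotropes alone. Drd2, the dopamine receptor that restrains melanotropes and also a melanotrope marker here, was at 103 and 116 FPKM in melanotropes, against 17.4 and 16.6 FPKM in corticotropes (log2 fold change 2.61, limma adjusted p = 3.6e-05). As a chosen marker its direction was known beforehand, so this call and its place among the 4 that rose are a description. Zfp703, a zinc finger repressor, shares 459 of 3392 exonic bases with Gm45371 on the opposite strand, so its value is uncertain if strand was not used. Zfp703 was at 1.79 and 1.78 FPKM in melanotropes, against 0.95 and 1.03 FPKM in corticotropes (limma adjusted p = 0.00949). Without melanotrope replicate 1, melanotrope replicate 2 or corticotrope replicate 1 its limma adjusted p was 0.0598, 0.0619 and 0.0565. Ret, a receptor for ligands of the GDNF family, fell at 0.034 and 0.0496 FPKM in melanotropes, against 1.41 and 1.25 FPKM in corticotropes (log2 fold change -1.16, limma adjusted p = 0.00048). Ntrk2, the receptor for BDNF, fell at 10.04 and 11.1 FPKM in melanotropes, against 18.4 and 22.3 FPKM in corticotropes (limma adjusted p = 0.002). In the deposited columns 1 of the 14 tested genes rose and 10 fell, beside 939 and 8787 of all 13153 tested genes. The Zfp703 call was lost there (limma adjusted p = 0.0977). Fewer genes of this list rose without melanotrope replicate 1 or corticotrope replicate 1.

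**Figure D4:**
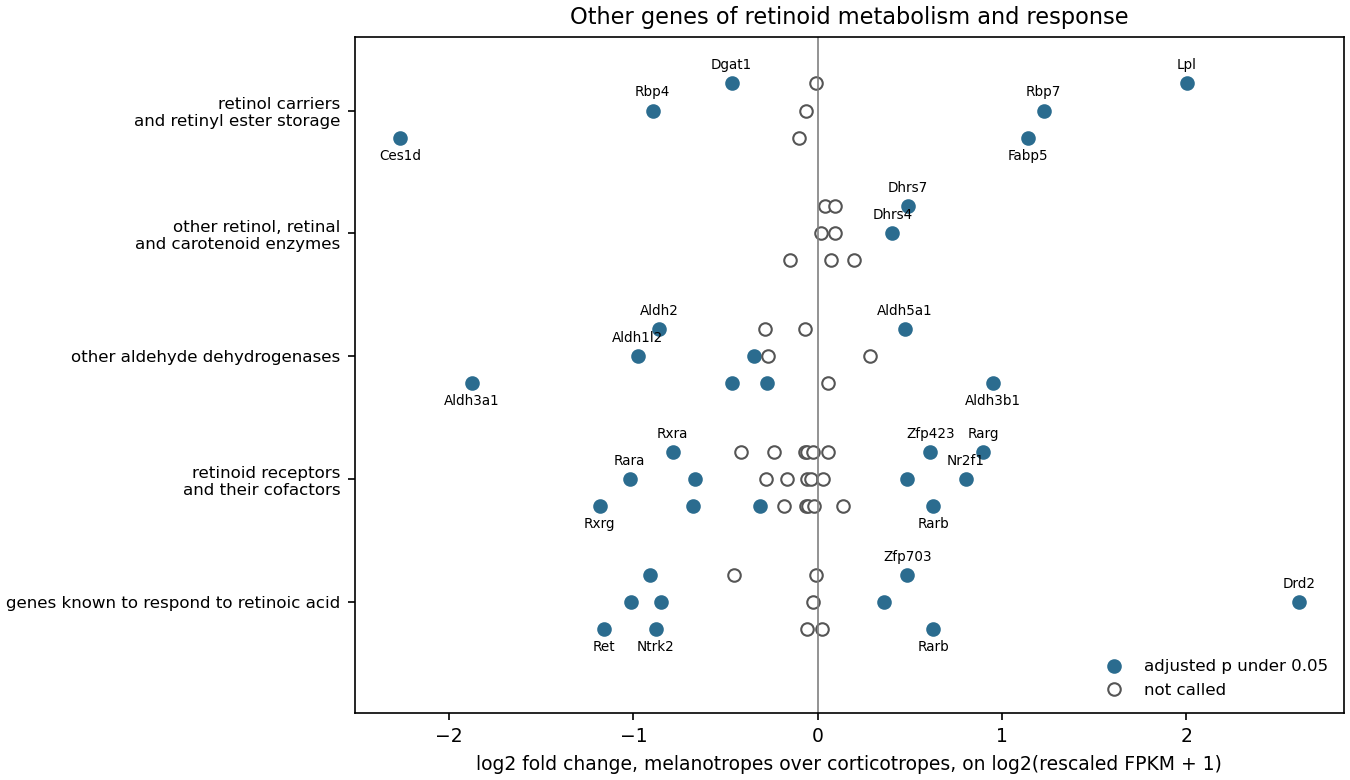
Log2 fold changes, melanotropes over corticotropes on log2(rescaled FPKM + 1), of tested genes in 5 lists of retinoid metabolism and response; filled points have a limma adjusted p under 0.05, open points were not called, and rows are offset for legibility. Called genes lie on both sides of 0 in 4 lists, from Ces1d at -2.27 to the chosen melanotrope marker Drd2 at 2.61. The calls among retinol, retinaldehyde and carotenoid enzymes are higher. In the deposited columns that last list has 0 higher and 6 lower calls among 9 tested, where 8787 of all 13153 tested genes are lower.

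The genes whose profile over the 4 libraries lay closest to that of Aldh1a2 were Fkbp5, Cfi, Lrrc10b, Nxph3 and Cntn1, by Euclidean distance of centred log2(rescaled FPKM + 1) values. They were picked for their likeness, so their values carry no test. Fkbp5, a co-chaperone of steroid receptors, lay at a distance of 0.0916 and was at 7.52 and 8.80 FPKM in melanotropes, against 54.5 and 67.0 FPKM in corticotropes. Cfi, the complement protease factor I, lay at 0.106 and was at 1.05 and 1.46 FPKM in melanotropes, against 11.7 and 14.9 FPKM in corticotropes. Lrrc10b, Nxph3 and Cntn1 lay at 0.158, 0.161 and 0.164. In each of these genes, as in Aldh1a2, corticotrope replicate 2 was the highest library.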

How the data were processed

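Per the file headers, the authors counted reads over the exons of RefSeq transcripts on mm10 with HOMER and deposited FPKM. Their deposited log2 fold changes, p-values and FDR came from getDiffExpression of HOMER, per the file headers. TopHat and edgeR are also listed, without versions, in the submitters' processing notes. Read numbers were implied from steps of FPKM times length.

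Each of 24063 genes was represented by its longest transcript. Columns were rescaled by unweighted TMM (trimming 0.3 of M and 0.05 of A), giving factors of 0.882 and 0.807 for melanotropes and 1.22 and 1.15 for corticotropes, by which the deposited values were divided. A moderated linear model (limma 3.58.1, R 4.3.3, trend, two-sided) of log2(FPKM + 1) on cell type alone was fitted to the 13043 genes at 1 rescaled FPKM or more in at least 2 libraries, with Benjamini-Hochberg adjustment and a threshold of 0.05. The fit had 2 residual degrees of freedom per gene and a prior, drawn from all tested genes, with a median of 4.02 degrees of freedom. The p-values therefore measure only the spread between these libraries, partly pooled across genes, and that spread may be technical.

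The members and lists were chosen with earlier results of these data known. The lists share some genes. Genes were named if they were members, receptors or key pathway genes of a set list, or the up to 3 per direction and list with the smallest adjusted p, or the 5 most like Aldh1a2. Some genes that this rule takes are not reported here. Antisense partners were read from GENCODE vM21. Alternatives covered scaling, filter, pseudocount, transcript choice, prior trend, a replicate block and each library left out.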

Additional observations from a re-analysis of the deposited data

How the results depend on the processing

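Aldh1a2 was lower in melanotropes in all 9 alternatives run for it, with log2 differences of -3.12 in the deposited columns, -3.40 with a pseudocount of 0.1, -1.62 with a pseudocount of 5, and -2.93 to -2.51 with a library left out. In the deposited columns the median fold change of all genes was -0.42 and calls numbered 9726 of 13153 tested (939 higher, 8787 lower). There, carriers had 2 higher and 6 lower calls of 9 tested, and retinol and carotenoid enzymes 0 and 6 of 9. Other aldehyde dehydrogenases had 1 and 11 of 14, receptors and cofactors 3 and 19 of 27, and responsive genes 1 and 10 of 14. Without the filter the retinol and carotenoid enzymes had 4 higher and 2 lower calls. Leaving out a library gave 1416 (without melanotrope replicate 2) to 2041 genes higher and 1387 to 1796 lower over all genes, with 1509 and 1387 lower without corticotrope replicates 1 and 2. Leaving out a library also took genes out of the test, where they had passed the filter through that cell type alone. Without either melanotrope replicate 25 of 27 receptors and cofactors were tested. Without either corticotrope replicate 11 other aldehyde dehydrogenases were tested, against 13 with all 4 libraries. The sign of genes near 0 turned for Rxrb (-0.43 deposited, -0.05 and 0.10 without corticotrope replicates 1 and 2) and Rdh11 (-0.42 deposited, -0.02 without melanotrope replicate 2, -0.12 and 0.15 without corticotrope replicates 1 and 2). The cause was not tested. With the replicate number as a block 7001 genes were called (3654 higher, 3347 lower), and 5 receptors and cofactors were higher and 9 lower; the block changed no call among the 26 named genes tested under it. The labels do not say that replicates share more than a number, and the deviations of same-numbered libraries correlated at 0.53 across genes, which are not independent replicates. FPKM were deposited to 2 decimals, which limits Aldh1a3, Crabp1 and Cyp26b1.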
